A study of Mus musculus with 24 samples.

Results

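The genes described here are 119 protein-coding genes of mouse chromosome 3 whose starts lie within 26.5 Mb from position 95.5 Mb on (GRCm38, GENCODE vM21 gene models). They were taken from an expression table of 31618 genes in Lewis lung carcinoma (LLC1) tumours. A gene counted as usable when its mean reached about 130.4 normalised counts, which is 1 log2 unit over the table's floor, in at least 1 of 3 LLC1 groups. Of 232 protein-coding genes listed in the window 135 passed this level and 97 did not. Of those 135, 16 were left out by symbol (those starting Hist2h, Slc, Atp5 or Rp, and Phgdh and Psma5), and the remaining 119 are called members below. The window was chosen by measured values, since its genes were higher in relapsed than in parental LLC1 tumours. The difference between those groups is therefore described without a test, and so is relapsed against chronic, which uses the same relapsed libraries. Of the members 109 passed the level in all 3 groups and 10 failed it in at least 1. Among those 10, Ppm1j, Ptpn22, Nudt17 and Sv2a passed in relapsed tumours alone and so had to be higher there.

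This stretch of mouse chromosome 3 holds the counterparts of genes of human chromosome 1. It carries Nras, a RAS GTPase that passes growth factor signals to RAF kinases, Mcl1, a BCL2-family protein that keeps mitochondria from starting apoptosis, and Notch2, a receptor that is cleaved once a ligand binds, which releases a transcriptional coactivator. Tumour cells often gain or lose chromosomes or parts of them, and transcripts of neighbouring genes on such a piece tend to shift together by a modest factor. No DNA was measured here, so the number of gene copies and the transcript yield of each copy cannot be told apart.

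RNA came from live CD45-negative cells sorted from tumours taken on day 15 after mice were injected with 1 of 2 lung cancer lines. LLC1 tumours were of 3 kinds: parental, grown from cells kept in a low dose of interferon gamma (IFNG) for long, called chronic IFNG, and relapsed, from tumours that came back following checkpoint blockade. KP tumours, from a mouse model with floxed p53 alleles, had the same parental and chronic IFNG groups, and relapses labelled 1st, 2nd and late. All KP groups, controls included, come from that model. Every tumour's treatment is labelled none, each of the 8 groups holds 3 libraries called biological replicates, and the labels do not say whether these were separate animals or how many clones made up a relapsed line. P-values therefore measure only the spread between these samples. An exact permutation test of 3 libraries against 3 has 0.1 as its smallest p, so p-values here rest on the variance model of limma. Bulk RNA cannot tell fewer cells of a type from less RNA per cell. The lines were normalised separately, so they are set side by side only as differences from their own parental tumours.

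Estimated depth was 13.3 to 34.9 M fragments per library in LLC1 and 13.8 to 32.6 M in KP. Of the host cell markers, T and NK cell lists summed to at most 2.02 CPM (counts scaled to library size) in every library, with Nkg7 at 0 in parental and Ncr1 at 0 in relapsed LLC1. The 8 fibroblast markers, all at usable levels, summed to 2524 to 3227 CPM in parental, 5073 to 7429 in chronic IFNG and 2181 to 2362 in relapsed LLC1. Erythroid markers reached 3.70 to 38.6 CPM in relapsed against 0.412 to 1.02 in parental LLC1 (5 genes, Alas2 at 0 in parental), endothelial markers 37.6 to 42.6 against 55.3 to 64.0 (7 genes) and macrophage markers 11.5 to 29.0 against 9.57 to 12.6 (7 genes). Pericyte markers were at 31.9 to 39.3 against 19.6 to 23.9 CPM (5 genes) and neutrophil markers at 3.03 to 7.21 against 1.10 to 1.44 (3 genes). Macrophage markers of KP summed to 254 to 298 CPM in 2nd relapse and 183 to 301 in late relapse against 73.0 to 102 in parental tumours, and endothelial markers to 239.9 to 259 in late relapse against 153 to 168. Of these lists 2 of 7 and 1 of 7 genes were at usable levels in KP. Leukocyte markers (0 of 5 usable in KP) went the other way in 2nd relapse KP, at 3.84 to 5.56 CPM against 7.42 to 20.95 in parental. In late relapse they overlapped parental, at 4.5 to 8.4. In LLC1 they were at 16.9 to 24.1 in relapsed against 26.4 to 32.4 in parental tumours. Fibroblast markers of KP (8 of 8 usable) summed to 35.4 to 43.6 CPM in 2nd relapse and 468 to 668 in 1st relapse. Parental KP tumours had 166 to 215.5, overlapped by chronic IFNG (150.3 to 257.9) and late relapse (135.5 to 387.6). The part of these markers in the results below was not tested.

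Members lay higher in relapsed LLC1 by a modest step. The median log2 difference from parental tumours was 0.32 on the deposited scale (quartiles 0.14 and 0.41), which is compressed at low counts, and the median ratio of normalised counts was 1.36 (quartiles 1.18 and 1.55). Of the 119 members 105 had a difference above 0. In 88 all 3 relapsed libraries lay above all 3 parental ones (percent called over all 10581 usable genes: 33.6) and in 6 they lay below (25.2). In 74 members the relapsed libraries lay above all 6 others (25.2% of all usable genes), and in 3 below them (16.7%). Relapsed values chose the members, so nothing is read from these counts. From library to library the median member stood at 0.29, 0.30 and 0.30 above the parental mean in relapsed tumours, at 0.02, -0.00 and -0.00 in chronic IFNG tumours and at -0.00, 0.00 and -0.01 in parental tumours. All relapsed libraries were thus high and alike, while the parental and chronic libraries overlapped. Relapsed minus chronic gave a median of 0.27, with 82 members wholly above and 5 wholly below (36.1% and 24.6% of all usable genes).

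The rest of chromosome 3 had nearly the same median as the members. The 355 other protein-coding genes of chromosome 3 at usable levels had a median difference of 0.29, made up of 0.30 for the 256 before the window and 0.25 for the 99 after it. Genes on other chromosomes had a median of 0.02. Among 20 chromosomes chromosome 3 had the highest median (0.30), followed by chromosome 19 (0.17), and it was also first with quantile normalisation (0.28), with median centring (0.27), with a stricter filter (0.40) and on back-calculated counts (0.43). In stretches of 2 Mb with at least 5 genes, 39 of 40 along the chromosome had a median above that of all genes, and the range inside the window (0.14 to 0.43) lay within the range of the stretches after it (-0.02 to 0.53). No test of members against the rest of the chromosome was made. Medians above that of all genes were seen along the chromosome as well as in the window.

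**Figure D1:**
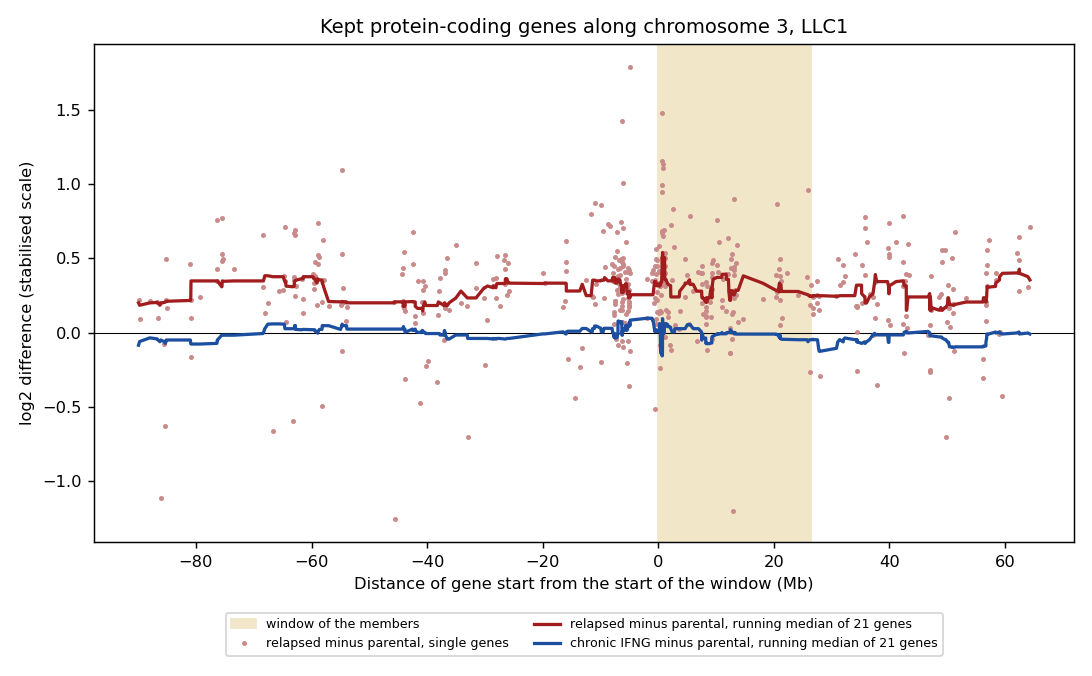
Log2 differences of usable protein-coding genes of chromosome 3 in LLC1 (vertical axis) by distance of the gene start from the start of the window in Mb (horizontal axis). Points are single genes for relapsed minus parental tumours, lines are running medians of 21 genes for relapsed (red) and chronic IFNG (blue) minus parental, and the window is shaded. The red line runs above 0 on both sides of the shaded window as well as inside it, and the blue line stays near 0.

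The genes next to the edges of the window are given without a test. Just before the window Cers2 (0.45), Setdb1 (0.34) and Arnt (0.33), and just inside it Golph3l (0.13), Ensa (0.42) and Mcl1 (0.58), were all higher in relapsed tumours. Inside the far edge F3 (-0.26) lay lower, and Abcd3 (0.18) and Arhgap29 (0.32) higher. Beyond it came Gclm (0.12), Dnttip2 (0.24) and Bcar3 (0.16). The 16 genes left out by symbol had a median of 0.62, with all 16 above 0, from 0.05 for the sugar transporter gene Slc35a3 to 1.48 for the histone gene Hist2h2aa1 (both named after their values were seen). Leaving them out therefore lowered the median of the window. The 97 genes below the level were near silent, with a median of 1.35 normalised counts per gene in relapsed and 3.02 in parental tumours.

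**Figure D2:**
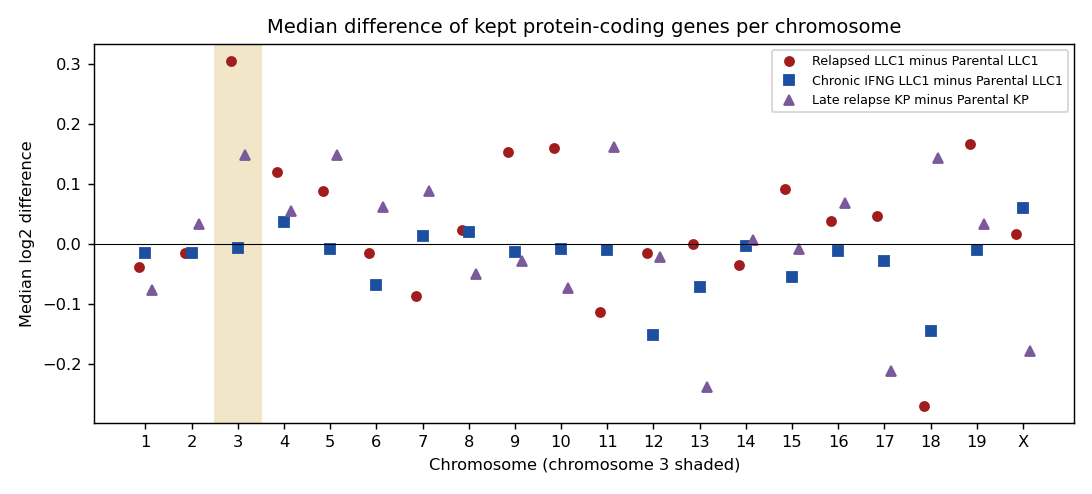
Median log2 difference of usable protein-coding genes (vertical axis) for each chromosome (horizontal axis), for relapsed and chronic IFNG LLC1 and late relapse KP, each minus its parental tumours. Chromosome 3, shaded, is the highest of 20 for relapsed LLC1 (0.30), close to 0 for chronic IFNG LLC1 (-0.01), and the second highest for late relapse KP (0.15).

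Among themselves members differed more with level than with place. Split into 3 classes by mean level, members had a median difference of 0.14 in the lowest (n = 40), 0.27 in the middle (n = 39) and 0.41 in the highest class (n = 40). Part of this comes with the stabilised scale, since the corresponding ratios of counts were 1.27, 1.32 and 1.43. Across the 119 members the difference had a Pearson correlation of 0.44 and a Spearman correlation of 0.47 with level, and Spearman correlations of 0.07 with gene length and -0.00 with position. These are descriptions across genes that share the same 9 libraries. Members on the plus strand had a median of 0.33 (n = 61) and those on the minus strand 0.28 (n = 58).

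Chronic IFNG exposure was the LLC1 comparison that did not choose the members, though it shares the parental libraries. It asked whether the members differed in tumours grown from IFNG-exposed cells. By limma at adjusted p below 0.05, 11 of 119 members rose (9.03% of all genes tested rose) and 8 fell (15.5% fell), with a median difference of 0.00 against -0.02 over all genes. All 3 chronic libraries lay above the parental ones in 20 members (15.0% of all genes) and below in 17 (23.6%). The count of falls was 5 without Parental LLC1 replicate 1. The highest rises were in Txnip, Ptgfrn, Ankrd35, Notch2, Olfml3 and Itga10, and the largest falls in Anp32e, Arhgap29, Rbm8a, Bcl2l15, Gstm5 and Sf3b4. Of these, Ankrd35 and Itga10 were below the level in parental tumours, and Bcl2l15 and Gstm5 were below it in chronic ones. The calls of these genes are not read as support.

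In KP, whose libraries took no part in choosing the members, 112 of the 119 were at usable levels. Against parental KP tumours 10 rose and 10 fell in chronic IFNG tumours (12.8% and 9.0% of all genes tested), with a median of -0.04. The falls numbered 3 without Parental KP replicate 1, 6 without its replicate 2, 4 without Chronic IFNG KP replicate 1 and 5 without its replicate 3. In 1st relapse 23 rose and 33 fell (25.4% and 25.5% of all genes tested), median -0.02. In 2nd relapse 41 rose and 24 fell (36.8% and 29.0%), median 0.06. In late relapse 53 rose and 7 fell (31.0% and 25.9%), median 0.13. Members with no overlap numbered 13 above and 26 below the parental libraries in chronic IFNG (19.9% and 18.5% of all genes), 25 and 34 in 1st relapse (29.6% and 29.6%), 42 and 29 in 2nd relapse (40.1% and 31.5%), and 57 and 9 in late relapse (33.6% and 28.7%). The split depended on the scaling in 2 of these. With median centring 10 rose and 20 fell in chronic IFNG and 35 and 31 in 2nd relapse, and with quantile normalisation 9 and 16, and 29 and 32.

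In late relapse KP the members' calls were mostly rises. Its libraries stood at member medians of 0.15, 0.14 and 0.09, against 0.02, -0.01 and -0.02 in parental KP tumours, so these groups did not overlap. The remaining genes of chromosome 3 had a median of 0.14, with 190 of 389 higher (48.8%) and 56 lower (14.4%), beside 47.3% and 6.25% of the members. Chromosome 3 had the second highest median of the 20 chromosomes there, behind chromosome 11 (0.16), but ranked 3 on back-calculated counts and 4 with the stricter filter. The 3 lowest of the 42 stretches of 2 Mb lay in its first 26 Mb, a piece picked after its values were seen. There 20 of 27 genes fell in late relapse (median -0.35), 18 in 1st relapse (-0.18) and 13 in chronic IFNG tumours (-0.15), whereas 11 rose and 6 fell in 2nd relapse (0.07). In LLC1 that same stretch had a median of 0.22 in relapsed tumours.

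**Figure D3:**
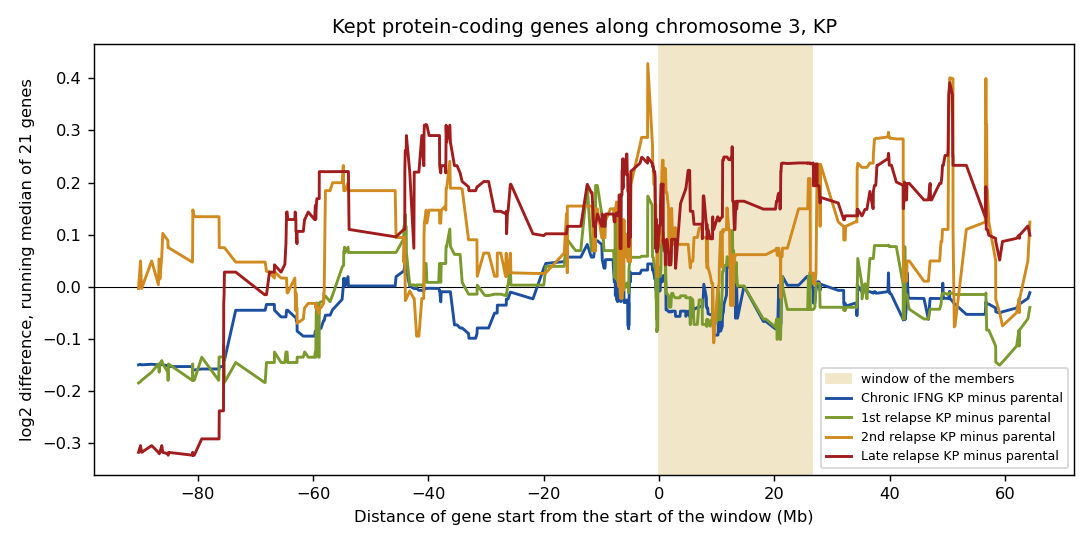
Running median of the log2 difference over 21 usable protein-coding genes (vertical axis) along chromosome 3 by distance from the start of the window in Mb (horizontal axis), for the 4 KP groups minus parental KP, with the window shaded. In late relapse (red) the line is below 0 at the start of the chromosome and above 0 through the window, where the member median is 0.13.

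**Figure D4:**
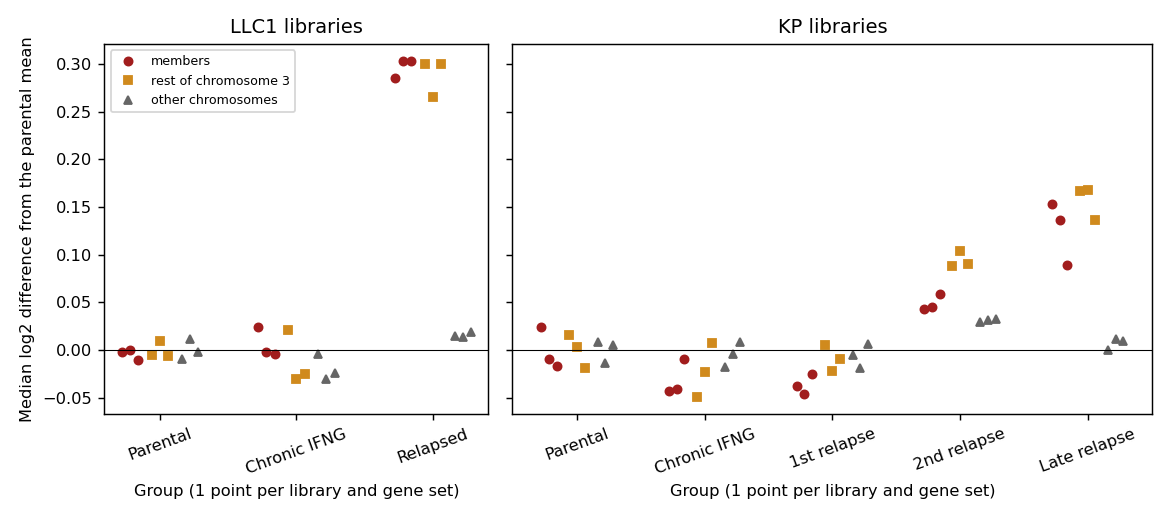
Median log2 difference from the parental mean (vertical axis) in each library of each group (horizontal axis), for members, for other genes of chromosome 3 and for genes of other chromosomes. In relapsed LLC1 the members (0.29 to 0.30) and the rest of chromosome 3 lie together, above other chromosomes, and in late relapse KP they do so at a lower height.

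Of the 24 members in growth and receptor signalling 21 lay above 0 in relapsed LLC1, with a median of 0.33. The role lists here and below only order the text. Relapsed values chose the members, and 54.4% of all usable genes lay above 0, so nothing is read from such counts or medians. Nras (chr3:103058285-103067914) stood at 4106, 4268 and 4361 normalised counts in relapsed tumours, at 3060.1, 3056 and 3189 in parental and at 3205, 3258 and 3348 in chronic IFNG tumours. The relapsed libraries lay above all others, a 1.37-fold ratio to parental, and the chronic difference (0.07, limma adjusted p 0.318) was not called. In KP, Nras fell in 1st relapse (-0.22, adjusted p 0.00816) and was not called in 2nd (0.09) or late relapse (-0.02). Rap1a, a RAS-related GTPase that controls integrin adhesion, counted 2450.1, 2533 and 2690.4 in relapsed LLC1 against 1347, 1294 and 1327 in parental and 1431, 1226 and 1287 in chronic tumours, a 1.93-fold ratio with no overlap. In KP, Rap1a was called lower in chronic IFNG and 1st relapse tumours. Both calls were lost with no filter (-0.18, limma adjusted p 0.0679, and -0.15, adjusted p 0.0722) and without several single libraries. Its differences of 0.04 and 0.09 in KP 2nd and late relapse were not called.

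Notch2 was high in relapsed and intermediate in chronic LLC1. Its counts were 8573, 9220.4 and 9061 in parental, 13274, 12196 and 11815 in chronic and 17028, 16067 and 15956 in relapsed tumours, so that the groups did not overlap. The chronic rise was 1.39-fold (log2 difference 0.45, SE 0.06, limma adjusted p 0.000881). In KP 1st relapse Notch2 fell, from 12049 ± 719.8 to 9831 ± 135 (SD, n = 3; -0.28, adjusted p 0.00354), a call lost with quantile normalisation (adjusted p 0.19). Gpsm2, which orients the mitotic spindle, stood at 4535, 4254 and 3638 in relapsed against 1749, 1917 and 2339.7 in parental LLC1. Its log2 differences in the 3 KP relapse groups were 0.02, 0.07 and 0.03, none of them called. Pde4dip, an anchor of phosphodiesterase at the Golgi and centrosome, counted 3157, 2907 and 3154 in relapsed and 1727, 1872 and 1446 in parental LLC1. It fell in KP 1st relapse (-0.39, adjusted p 0.000442) and rose in 2nd (0.62, adjusted p 2.2e-06) and late relapse (0.35, adjusted p 0.000834).

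Csf1, the growth factor of macrophages, was at 6242 ± 253 in relapsed and 5043 ± 95.0 in parental LLC1 (mean ± SD, n = 3). Its chronic rise (0.27, adjusted p 0.0217) was lost without Parental LLC1 replicate 2 (0.0595) or 3 (0.0517), with no filter (0.0567) and with only the 2 groups compared (0.0503). In KP 2nd relapse Csf1 fell to 57.1, 50.0 and 61.7 from 485, 627 and 435, a 9.16-fold drop with no overlap (adjusted p 3.81e-09). In 1st and late relapse KP it rose (0.36, adjusted p 0.0009, and 0.27, adjusted p 0.00518), so the KP relapse groups did not share a direction. The macrophage marker sums given above were higher in 2nd and late relapse KP than in parental KP, while the leukocyte sums were lower in 2nd relapse. The part of both lists in the values of Csf1 was not tested. Rhoc, a small GTPase of cell motility, was 1.46-fold higher in relapsed LLC1 and fell in KP 2nd relapse from 3567 ± 43.1 to 2231 ± 88.4 (-0.57, adjusted p 4.08e-08). Gnai3, an inhibitory G protein subunit, was 1.45-fold higher in relapsed LLC1 and rose in KP 2nd (0.32, adjusted p 1.31e-05) and late relapse (0.24, adjusted p 0.000289).

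Arhgap29, which switches off small GTPases, counted 613, 582 and 428 in parental and 304, 280.3 and 407 in chronic IFNG LLC1, a fall of 1.64-fold (-0.38, adjusted p 0.0114), against 717, 800.2 and 795 in relapsed tumours. The 3 LLC1 groups did not overlap, chronic being lowest and relapsed highest. KP 2nd relapse had 26.6, 50.7 and 30.0 against 180.3, 349 and 205 (-0.77, adjusted p 5.24e-05). Relapsed LLC1 differed little from parental in Bcl9, a Wnt pathway coactivator (0.14, groups overlapping), in Trim33, a ubiquitin ligase of the TGF-beta pathway (0.12), and in Prkab2, a subunit of the energy sensor AMPK (-0.12).

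**Figure D5:**
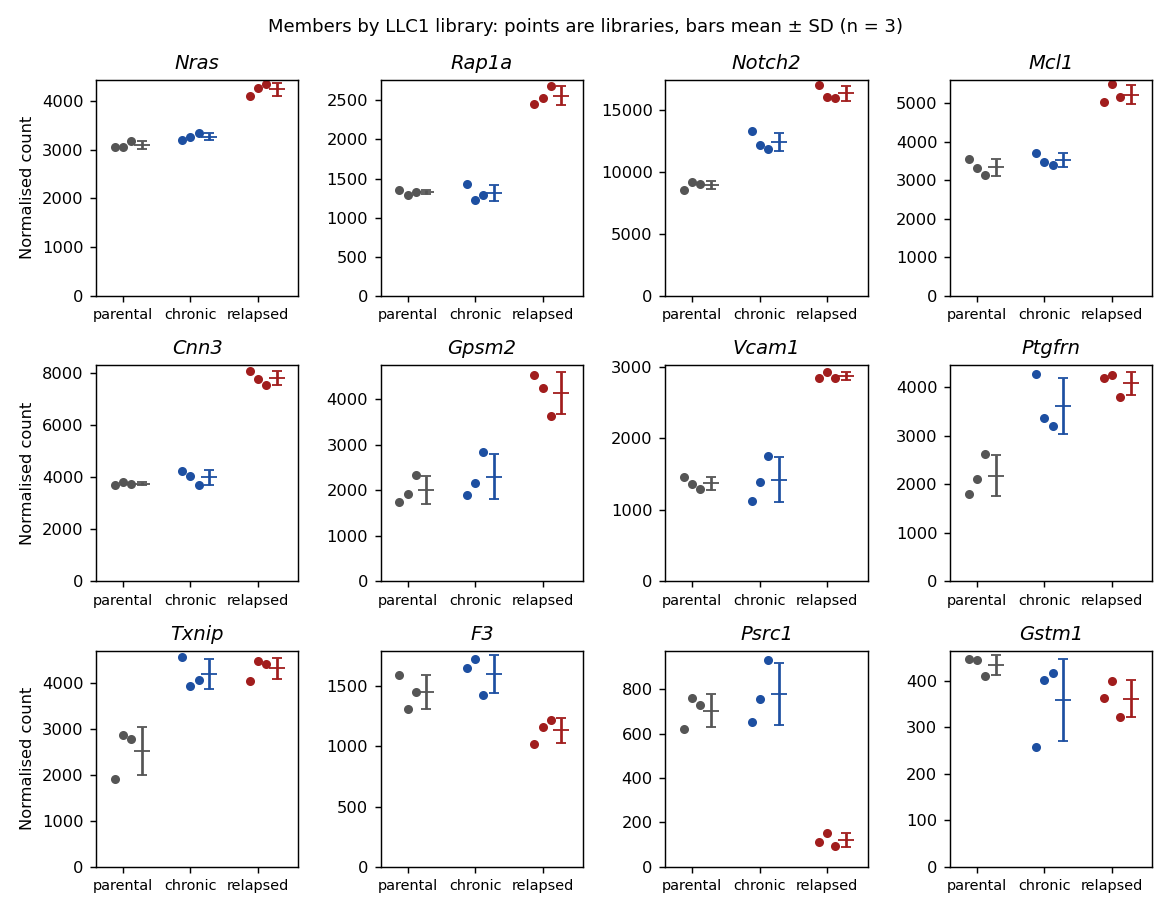
Normalised counts (vertical axes, from 0) of 12 members in the 9 LLC1 libraries, by group (horizontal axes). Points are libraries, and bars show the mean ± SD of 3. Most panels have relapsed libraries above the others, Txnip and Ptgfrn are high in chronic IFNG tumours too, F3 and Psrc1 are lowest in relapsed tumours, and Gstm1 changes little.

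Survival and stress members were all above 0 in relapsed LLC1 (7 of 7, median 0.40). Mcl1 (chr3:95658788-95663176) had 5025, 5493 and 5160.4 counts in relapsed tumours, 3562, 3309 and 3123 in parental and 3717, 3474 and 3386 in chronic ones. Relapsed libraries were apart from the other groups by 1.57-fold over parental. In KP, Mcl1 rose in 2nd (0.22, adjusted p 0.00162) and late relapse (0.19, adjusted p 0.00624), though with quantile normalisation the 2nd relapse value was 0.03 (adjusted p 0.64). Txnip, an inhibitor of thioredoxin and of glucose uptake, rose in chronic LLC1 from 1909, 2864 and 2781 to 4563, 3937 and 4063 (0.65, SE 0.11, adjusted p 0.0031), and stood at 4046, 4483 and 4415 in relapsed tumours, overlapping the chronic ones. Txnip also rose in KP chronic IFNG tumours (0.69, adjusted p 0.00025), in 1st (0.65, adjusted p 0.00013) and in late relapse (0.45, adjusted p 0.00194). Bcl2l15, a BCL2-family relative, fell in chronic LLC1 to 73.3 ± 8.76 from 140.2 ± 19.6 (adjusted p 0.0105). It passed the level in parental and relapsed LLC1 but not in chronic tumours, so this fall is not read as support. In KP late relapse Bcl2l15 had 985, 482 and 687 counts against 25.3, 42.5 and 33.0, 21.4-fold higher (1.58, adjusted p 1.69e-07), with all late libraries above all parental ones. Its parental KP counts lay below the usable level there, about 144.2 counts. It was therefore tested in KP only because it was higher in another group, so this call supports nothing.

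Members at the cell surface, in the matrix and in the cytoskeleton had a median of 0.44 in relapsed LLC1 (7 of 8 above 0). Cnn3 (chr3:121426497-121458207), an actin-binding calponin, held the highest log2 difference of the members on the deposited scale. It counted 8064, 7747 and 7546 in relapsed LLC1 against 3687, 3816 and 3737 in parental and 4223, 4046 and 3673 in chronic tumours, 2.08-fold over parental. In KP 2nd relapse it fell 2.68-fold, from 7717, 7220.2 and 7587 to 2663, 2752 and 2978 (-1.27, adjusted p 7.25e-11), and it also fell in chronic IFNG (-0.29, adjusted p 0.00124) and 1st relapse (-0.29, adjusted p 0.000414). It rose in late relapse (0.24, adjusted p 0.00173). Vcam1, the adhesion molecule that binds integrin on leukocytes, stood at 2840.3, 2927 and 2839.9 in relapsed LLC1, above 1457, 1359 and 1282 in parental and 1116, 1394 and 1748 in chronic tumours. It rose in KP chronic IFNG (1.86-fold, adjusted p 0.000276) and 1st relapse (1.97-fold, adjusted p 3.86e-05). Its smaller rises in 2nd (0.32, adjusted p 0.0237) and late relapse (0.38, adjusted p 0.0118) were lost without single libraries, for example 0.105 and 0.0582 without Parental KP replicate 3, 0.0796 without 2nd relapse KP replicate 2 and 0.0658 without Late relapse KP replicate 2. Quantile normalisation also ended the 2nd relapse call (0.109).

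Ptgfrn, a tetraspanin-associated membrane protein, rose in chronic LLC1 from 1802, 2104 and 2633 to 4273, 3366 and 3214 (0.63, adjusted p 0.00446) and counted 4187, 4260.2 and 3807 in relapsed tumours. In KP its differences ran from -0.09 to 0.11 and none was called. Olfml3, a secreted matrix protein, rose in chronic LLC1 from 214 ± 33.5 to 401 ± 15.3 (adjusted p 0.00171). Itga10, a collagen-binding integrin chain at low counts, rose from 62.6, 61.9 and 128 to 200.1, 134 and 222. Its adjusted p of 0.0138 became 0.0567 without Parental LLC1 replicate 1 and 0.0538 without replicate 2. Itga10 was below the level in parental tumours and passed it in chronic and relapsed ones, so this call is not read as support. Ankrd35 stood at 197 ± 60.6 in chronic and 50.3 ± 22.2 in parental tumours. It passed the level through its chronic value alone and had to be higher there, so its call, though among the 11 rises, supports nothing. Of the members that passed on their parental mean 9 rose and 8 fell. Fibroblast markers were highest in the chronic libraries, as given above, and their part in these rises was not tested.

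F3 (chr3:121723537-121735048), which encodes tissue factor, the starter of blood clotting, ran against the members in LLC1. It counted 1019, 1163 and 1214 in relapsed, 1588, 1309 and 1448 in parental and 1647, 1726 and 1427 in chronic tumours, with relapsed below parental in all 3 libraries. In KP it rose in every comparison. From 485, 417 and 382 in parental tumours it went to 1217, 980.4 and 1427 in chronic IFNG (2.82-fold, adjusted p 6.9e-06), 1610.2, 1821 and 1802 in 1st relapse (4.07-fold, adjusted p 5.17e-08), 3413, 4138 and 4051 in 2nd relapse (9.03-fold, adjusted p 4.55e-11) and 3778, 3501 and 3245 in late relapse (8.19-fold, adjusted p 3.41e-10). No KP library of these groups overlapped the parental ones, and the 2nd and late relapse libraries lay above the 1st relapse ones. The 4 KP comparisons share the parental libraries.

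Of the 30 members listed here under RNA processing, transcription and translation, a loose list that also holds Cdc14a and Sass6, 23 were above 0 in relapsed LLC1 (median 0.25). Psrc1 (chr3:108383839-108388231), placed in that list here, is a microtubule-binding protein of the mitotic spindle and a p53-responsive gene. Its counts were 113, 154 and 92.7 in relapsed tumours, 622, 762 and 729 in parental and 655, 757 and 932 in chronic ones. Relapsed libraries were 5.87-fold below parental with no overlap, the lowest value of any member. Psrc1 was below the usable level in relapsed LLC1 and passed in the other LLC1 groups. In KP Psrc1 was at 18.7 ± 11.3 counts in parental tumours and not at a usable level. The splicing factor genes Prpf3 (0.32), Prpf38b (0.25) and Sf3b4 (-0.02) and the RNA-methylation adaptor Rbm15 (0.14) spread around the group median, with Sf3b4 overlapping.

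In chronic LLC1 5 of these 30 fell and 2 rose, shares near those of all genes tested (15.5% and 9.03%). Rbm8a, a core protein of the exon junction complex, fell from 1362, 1368 and 1423 to 1055, 938 and 1068 (-0.32, adjusted p 0.00339) and counted 2013, 1760.5 and 1792 in relapsed tumours, so the groups were fully apart. Sf3b4 fell from 882 ± 29.2 to 668 ± 66.7 (adjusted p 0.00796). Anp32e, a histone chaperone that removes H2A.Z, fell in chronic LLC1 from 1398, 1654 and 1188 to 987, 761 and 1119.7 (adjusted p 0.0181), a call lost with no filter (0.0517) and without Parental LLC1 replicate 1 (0.0533) or 2 (0.0669) or Chronic IFNG LLC1 replicate 2 (0.0635). KP chronic IFNG tumours showed -0.31 for Anp32e (adjusted p 0.0211), which was likewise lost without Chronic IFNG KP replicate 1 (0.108) or 3 (0.0628) or Parental KP replicate 1 (0.064) or 3 (0.0568), and with only the 2 groups compared (0.0677). In KP 1st relapse 11 of 29 members of this list fell and 2 rose, beside 25.5% and 25.4% of all genes tested. The falls included Prpf3 (-0.42, adjusted p 0.000459) and the splicing repressor Ptbp2 (-0.42, adjusted p 7.41e-06).

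The 3 glutathione transferases, which attach glutathione to reactive compounds, had differences of -0.14, -0.14 and 0.03 in relapsed LLC1. Gstm1 stood at 362, 399.8 and 322 in relapsed and 447, 443 and 409.7 in parental LLC1, Gstm2 at 309.6, 306 and 286 and 309.9, 418 and 368, both lower in relapsed tumours. For Gstm2 the groups nearly touched, at 309.6 and 309.9. Gstm5 fell in chronic LLC1 from 144 ± 4.74 to 79.0 ± 11.9 (adjusted p 0.00468). It passed the level in parental and relapsed LLC1 but not in chronic tumours, so this fall is not read as support. In KP all 3 rose in chronic IFNG, 1st relapse and late relapse. Gstm2 went from 57.6, 37.9 and 61.0 in parental to 357, 238 and 387 in chronic IFNG and 439, 467 and 476 in 1st relapse (8.83-fold, adjusted p 3.82e-07), and Gstm1 from 338 ± 27.6 to 999 ± 160.0 and 973 ± 49.4. In parental KP Gstm2 lay below the usable level of about 144.2 counts. It was tested in KP only because it was higher in other groups, so its calls there support nothing. For Gstm5 the chronic IFNG rise in KP (0.19, adjusted p 0.00305) was lost with quantile normalisation (0.479). Gstm genes are close copies of each other, and how reads were shared out among them is not known.

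All 10 metabolic members lay above 0 in relapsed LLC1 (median 0.27). Dbt, a subunit of branched-chain keto acid breakdown, counted 641 ± 76.5 against 402 ± 23.0 in parental tumours, and Abcd3, a peroxisomal fatty acid transporter, 1096 ± 42.4 against 913 ± 26.6. In both the relapsed libraries lay above all parental ones. Abcd3 rose in all 4 KP comparisons, from 1562, 1456 and 1468 in parental to 2802, 3033 and 3221 in 2nd relapse (2.02-fold, adjusted p 2.63e-08). Wars2, a mitochondrial tryptophan-tRNA ligase, differed by 0.03 in relapsed LLC1 and rose in the 3 KP relapse groups (0.27, 0.34 and 0.22; adjusted p 0.000554, 4.56e-05 and 0.00204).

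All 12 members listed here under trafficking, a loose list that also holds Ensa and Aph1a, were above 0 in relapsed LLC1 as well (median 0.27). Golph3l, a Golgi protein, rose in all 4 KP comparisons, to 2085 ± 125 in 1st relapse from 974 ± 40.9 (adjusted p 1.19e-06). Of the 25 members outside these groups 24 were above 0 in relapsed LLC1 (median 0.36). Among them Mtmr11, a relative of the myotubularin phosphatases, counted 799.6, 725 and 791 in parental and 3323, 3248 and 3215 in 2nd relapse KP (4.23-fold, adjusted p 5.19e-11), and 2577, 2528 and 2925 in late relapse (3.47-fold, adjusted p 1.17e-09). Tbx15, a T-box transcription factor, fell to 24.5, 9.25 and 6.41 in 2nd relapse KP from 257, 271 and 298 (20.5-fold lower, adjusted p 1.29e-09), while in relapsed LLC1 it differed by 0.14. Across KP, 7 members rose in all 4 comparisons (among them Golph3l, Mtmr11, Gstm5, Vcam1, F3 and Abcd3), beside 7.11% of all genes tested, a like share. Those comparisons share the parental libraries. In all 4, 1 member fell, beside 3.52% of all genes (Cttnbp2nl, whose chronic IFNG call was lost with no filter, 0.0609, and without any 1 of 4 single libraries: 0.129 without Chronic IFNG KP replicate 1, 0.0694 without its replicate 3, 0.0744 without Parental KP replicate 1 and 0.0888 without its replicate 3).

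Promoters of the members were set beside these values because most members were higher together in relapsed LLC1. Of the 119 members 100 matched a promoter in the RefSeq table (GRCm38.p6), each 300 bases long. Motifs were searched on both strands by their exact letters. The letters GGGCGG, bound by SP-family factors, occurred in 64% of member promoters, in 68.5% of the promoters of all usable protein-coding genes and in 36.0% of all promoters. TATAAA occurred in 10% against 6.20% and 14.2%, CACGTG in 9% against 10.8% and 7.20%, TGACTCA in 3% against 3.25% and 5.16%, CCAAT in 37% against 39.4% and 37.9%, and GGAAGT in 31% against 29.8% and 24.2%. The median number of CpG pairs was 19 in member promoters and 22 in those of usable genes. These shares describe letters only.

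The 200 bases before the start of 3 members are shown 5′ to 3′, chosen as the highest log2 difference (Cnn3, chr3:121426297-121426496, plus strand), the lowest (Psrc1, chr3:108383638-108383837, plus strand) and the gene that went opposite ways in the lines (F3, chr3:121723337-121723536, plus strand). Capitals mark every match to the motifs above on either strand.
Cnn3: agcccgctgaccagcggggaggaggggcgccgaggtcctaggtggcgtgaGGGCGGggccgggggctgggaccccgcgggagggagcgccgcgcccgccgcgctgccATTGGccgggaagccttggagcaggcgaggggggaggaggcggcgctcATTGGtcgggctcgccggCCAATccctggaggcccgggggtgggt
Psrc1: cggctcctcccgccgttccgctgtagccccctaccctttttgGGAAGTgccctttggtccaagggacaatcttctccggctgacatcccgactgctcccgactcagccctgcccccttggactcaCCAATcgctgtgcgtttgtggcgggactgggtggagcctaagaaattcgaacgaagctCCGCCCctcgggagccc
F3: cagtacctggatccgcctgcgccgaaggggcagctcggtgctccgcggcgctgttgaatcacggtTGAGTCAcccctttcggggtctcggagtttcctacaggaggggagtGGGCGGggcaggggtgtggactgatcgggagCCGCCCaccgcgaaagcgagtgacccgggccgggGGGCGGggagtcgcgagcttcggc
In these windows Cnn3 held CCAAT or its complement at 3 places and the SP-factor letters at 1. Psrc1 held 1 match each to GGAAGT, to CCAAT and to the complement of the SP-factor letters. The F3 window held the SP-factor letters or their complement at 3 places and the complement of TGACTCA at 1. None of the 3 windows held TATAAA.

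Genes of the same pathways outside the window, which took no part in choosing it, were tested in relapsed against parental LLC1 with limma. Of 10 RAS and RAF genes 3 rose and 0 fell (median 0.09), among them Mras (0.65, limma adjusted p 3.40e-05). In the Notch pathway 2 of 12 rose and 4 fell (median -0.03), with the ligand gene Dll1 at -0.57 (adjusted p 0.00111) and the DNA-binding partner Rbpj at -0.46 (adjusted p 0.00101). The BCL2 family had 3 of 12 up and 2 down (median 0.01), with the pro-apoptotic genes Pmaip1 (-0.55, adjusted p 0.000213) and Bid (0.45, adjusted p 0.000151). Glutathione genes outside the window had 6 of 10 up and 1 down (median 0.31), led by Mgst3 (1.04, adjusted p 8.05e-07) and Gsta4 (0.80, adjusted p 6.66e-06). Of 20 spliceosome genes 7 rose and 3 fell (median 0.04), with Plrg1 (0.35, adjusted p 0.000117) and Rbm15b (0.34, adjusted p 0.00798) the furthest from 0. Plrg1 itself lies on chromosome 3, before the window, as does Mgst2 of the glutathione list (-0.31). Over all genes 25.9% rose and 19.5% fell.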

How the data were processed

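RNA-seq was made from 24 libraries of sorted tumour cells, 3 in each of 8 groups. The authors deposited 1 table per line of log2-scale variance-stabilised values. Tools listed by the submitters' processing notes are DESeq2 1.34.0, Salmon 1.8.0 and cutadapt 2.9, with the mouse build GRCm38 and no roles given. Normalised counts were back-calculated from the deposited log2 values on the assumption that the authors' values are on the stabilised scale of DESeq2. Low values then came out whole within 0.15 of a read in 72.9% to 79.3% of cases, against 30% by chance, and gave the depth estimates. At low counts this scale understates ratios.

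Gene IDs were matched to GENCODE vM21. Genes 1 log2 unit or more above the table's lowest value (8.03 in LLC1, 8.17 in KP) in at least 1 group mean were used, 10581 in LLC1 and 11193 in KP. They were fitted per line with limma 3.58.1 (R 4.3.3, intensity trend, all groups of the line) and adjusted by Benjamini-Hochberg over all of them. The code was tested on simulated data. Python 3.11.15, numpy 2.4.6, pandas 2.3.3 and matplotlib 3.10.9 did the rest. The members and gene lists were chosen with earlier results of these data known.

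Named genes were the 8 largest and 6 smallest differences between relapsed and parental LLC1, up to 6 called in each direction in chronic IFNG LLC1 and 3 in each KP comparison, the 3 nearest each edge on either side, well-known genes, and the top 2 of each pathway list. Some genes that this rule names are not reported here. Alternatives changed the filter, the normalisation, the limma trend, the libraries fitted, the replicate block, the scale, the window edges and the member definition, and left out each replicate. The labels tie replicate numbers to no shared animal or batch. Same-numbered libraries of parental and 1st relapse KP deviated together in all 3 pairs (correlations 0.15, 0.11 and 0.21). Differently numbered libraries reached 0.01 between these groups, and 0.22 between chronic IFNG and 1st relapse KP. Whether the libraries are paired is not known. The main fits therefore used no pairing, and fits with the number as a block are given below. In the other comparisons with parental tumours at least 1 pair was below 0.1. No replicate pair within a group agreed within sampling noise (median chi-square 1.55 to 3.64 per gene, against 0.455 for sampling alone).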

Additional observations from a re-analysis of the deposited data

Results flagged for a closer look

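In 19 of the 42 members named by the rule the log2 difference from parental tumours pointed one way in LLC1 and the other way in KP, with all 3 libraries of a group on the same side of their parental libraries. The difference between the lines was not tested, and the comparisons within a line share their parental libraries. Relapsed LLC1 values chose the members, and some were named as extremes of these same comparisons, so nothing is read from the count of 19. Over all usable KP genes 29.6%, 31.5% and 28.7% lay wholly below the parental libraries in 1st, 2nd and late relapse. Wholly above lay 29.6%, 40.1% and 33.6%. In the values below the LLC1 difference comes first and the KP difference second.

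Most of these genes were higher in relapsed LLC1 and lower in KP 1st relapse. They were Anp32e (0.34 and -0.32), Cnn3 (0.96 and -0.29), Cttnbp2nl (0.49 and -0.32), Notch2 (0.83 and -0.28), Nras (0.40 and -0.22), Pde4dip (0.72 and -0.39), Prpf3 (0.32 and -0.42), Prpf38b (0.25 and -0.26), Ptbp2 (0.26 and -0.42), Rbm8a (0.33 and -0.17), Rhoc (0.47 and -0.08), Tbx15 (0.14 and -0.29) and Trim33 (0.12 and -0.32).

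Relapsed LLC1 and KP 2nd relapse differed in this way for Arhgap29 (0.32 and -0.77), Cnn3 (0.96 and -1.27), Csf1 (0.28 and -1.17), Cttnbp2nl (0.49 and -0.33), Notch2 (0.83 and -0.21), Prpf3 (0.32 and -0.14), Ptbp2 (0.26 and -0.14), Rhoc (0.47 and -0.57) and Tbx15 (0.14 and -1.06). In KP late relapse the genes were Cttnbp2nl (0.49 and -0.30), Prpf3 (0.32 and -0.18), Prpf38b (0.25 and -0.19), Ptbp2 (0.26 and -0.27) and Tbx15 (0.14 and -0.32).

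The opposite pattern, lower in relapsed LLC1 and higher in KP, was seen for F3 (-0.26 in LLC1, and 1.32, 2.27 and 2.15 in KP 1st, 2nd and late relapse), Gstm1 (-0.14, and 0.88, 0.20 and 0.41) and Gstm2 (-0.14, and 1.11 and 0.45 in 1st and late relapse). Gstm2 was below the usable level in parental KP, and its relapsed and parental LLC1 libraries nearly touched, as given above. Under chronic IFNG the lines differed in direction for Gstm5 (-0.27 and 0.19), Notch2 (0.45 and -0.19) and Nras (0.07 and -0.13). Gstm5 was below the usable level in chronic IFNG LLC1.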

How the results depend on the processing

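The stabilised scale compresses differences at low counts, depth limits members near the filter, and no DNA was measured. The member median between relapsed and parental LLC1 (0.32) was 0.44 on log2 counts plus 10, 0.28 with median centring, 0.29 with quantile normalisation, 0.43 with the stricter filter, and 0.29 to 0.31 without single replicates. It was 0.30 with a window narrower by 1 Mb or wider by 2 Mb, 0.33 with the symbols left out by the rule and 0.30 over members passing on their parental mean. Relapsed minus chronic (0.27) was 0.39 on counts, 0.22 with centring, 0.23 with quantile normalisation, 0.39 with the stricter filter, 0.29 with the left-out symbols, and 0.26 to 0.28 without single replicates.

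In chronic IFNG LLC1 the 8 falls became 5 with no filter, 2 with the stricter filter, 5 with the narrower and 16 with the wider window, and 5 to 9 without single replicates. The 11 rises became 6 with the stricter filter and 8 to 11 without single replicates. In chronic IFNG KP the 10 falls became 20 with centring, 5 with no filter, 16 with quantile normalisation and 3 to 13 without single replicates, and the 10 rises became 6 with the narrower window. The stricter filter, which leaves fewer members, gave 12 rises and 15 falls in 1st relapse, 21 and 8 in 2nd, and 25 and 4 in late relapse KP. Without single replicates these ran from 18 to 24 and 26 to 30, 36 to 42 and 21 to 24, and 47 to 55 and 6 to 8.

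With the replicate number as a block, 10 members rose and 8 fell in chronic IFNG LLC1. In KP the block gave 10 and 13 in chronic IFNG, 21 and 32 in 1st, 41 and 24 in 2nd, and 53 and 7 in late relapse. In 1st relapse KP, where same-numbered libraries deviated together, the block ended the call of Prkab2 (-0.17, adjusted p 0.0597) and changed no other call of a named gene. Deviations of same-numbered libraries correlated from -0.30 to 0.08 in LLC1 and -0.22 to 0.27 in KP. Of 2678 recomputed values of named genes 2542 kept their direction and side of the threshold, 84 lost a call, 52 gained one and 0 reversed.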
